A study of Mus musculus with 2 samples.

Results

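Mir103-1, Mir103-2 and Mir107 are the 3 mouse genes of the miR-103 and miR-107 family of microRNAs (miRNAs), short RNAs that guide Argonaute proteins to messenger RNAs. They were selected by gene symbol from the 1973 miRNA loci counted in the embryonic midbrain. The study held 2 small RNA libraries of 1 group, embryonic midbrain of strain B6NCrl at day 14.5 of gestation, with no genotype, treatment or other tissue to set against it. Per the labels each library came from a single midbrain, collected on different days from what is in each case called pup 1 of pregnancy 2, under 1 shared donor identifier and with the sex given as pooled. The labels do not settle whether these were separate animals. The spread between the libraries therefore cannot be divided into a part between animals and a technical part. RNA below 30 nt was sequenced, and the libraries held 7302633 and 3966727 reads on the annotated strand of miRNA genes in replicates 1 and 2.

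Each of these genes lies in an intron of a pantothenate kinase gene, on the strand of that gene. Intronic miRNAs of this kind are commonly cut from the transcript of their host. Pantothenate kinases phosphorylate pantothenate, the vitamin precursor of coenzyme A, in the step that controls the rate of coenzyme A synthesis. The family is known for regulating insulin sensitivity in mouse liver and fat, for targeting Dicer in human tumour cells, and, in zebrafish, for tuning Dicer during hindbrain neurogenesis. The host messenger RNAs were not measured here.

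The precursors are shown whole because the family's reads are divided among loci by the few bases at which they differ. Capitals mark the mature 3p arm, the arm named for the family. The sequences are those of RefSeq on GRCm38.p6, written 5′ to 3′ on the strand of the gene.
Mir103-1 hairpin: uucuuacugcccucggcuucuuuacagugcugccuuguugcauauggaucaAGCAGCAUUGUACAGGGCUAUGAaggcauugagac
Mir103-2 hairpin: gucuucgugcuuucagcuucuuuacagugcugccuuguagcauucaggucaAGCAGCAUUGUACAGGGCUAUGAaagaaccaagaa
Mir107 hairpin: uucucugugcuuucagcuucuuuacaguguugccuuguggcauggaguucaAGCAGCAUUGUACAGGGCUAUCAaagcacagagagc

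The mature arms follow, with the seed, bases 2 to 8 that pair with targets, in capitals. The 3p arm of Mir103-1 and Mir103-2 is 1 and the same sequence of 23 nt, and that of Mir107 differs from it at a single base near the 3′ end, outside the seed.
miR-103-3p: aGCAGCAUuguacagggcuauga
miR-107-3p: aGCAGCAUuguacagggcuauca
miR-103-1-5p: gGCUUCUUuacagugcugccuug
miR-103-2-5p: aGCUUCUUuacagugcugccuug
miR-107-5p: aGCUUCUUuacaguguugccuug

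With positions counted from 1 at the 5′ end, the difference between miR-103-3p and miR-107-3p is G22C. In the 5p arm the change from Mir103-1 to Mir103-2 is G1A and that from Mir103-2 to Mir107 is C16U. All 3 loci thus carry the 3p seed GCAGCAU and the 5p seed GCUUCUU, and no other locus of the RefSeq miRNA table carries either. Over their whole length the hairpins were 80.2% identical between Mir103-1 and Mir103-2, 80.5% between Mir103-1 and Mir107 and 83.9% between Mir103-2 and Mir107 in global alignments. Each folded into a single hairpin, with a predicted minimum free energy of -35.8 kcal/mol for Mir103-1, -31.8 kcal/mol for Mir103-2 and -41.2 kcal/mol for Mir107.

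The place of the hairpin in its host was alike at the 3 loci. Mir103-1 (ENSMUSG00000065553.1) lies at chr11:35782396-35782481 on the plus strand in Pank3, Mir103-2 (ENSMUSG00000065563.1) at chr2:131288052-131288137 on the plus strand in Pank2, and Mir107 (ENSMUSG00000065594.1) at chr19:34820687-34820773 on the minus strand in Pank1, in the coordinates of mm10. In the principal transcript of each host, which has 7 exons in every case, the hairpin sits in intron 5. The stretch of intron before it measures 688 bases in Pank3, 454 in Pank2 and 326 in Pank1. The introns differ more, at 1740 bases in Pank3, 5801 in Pank2 and 7282 in Pank1. None of the hairpins overlaps an exon of an annotated transcript of its host.

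**Figure D1:**
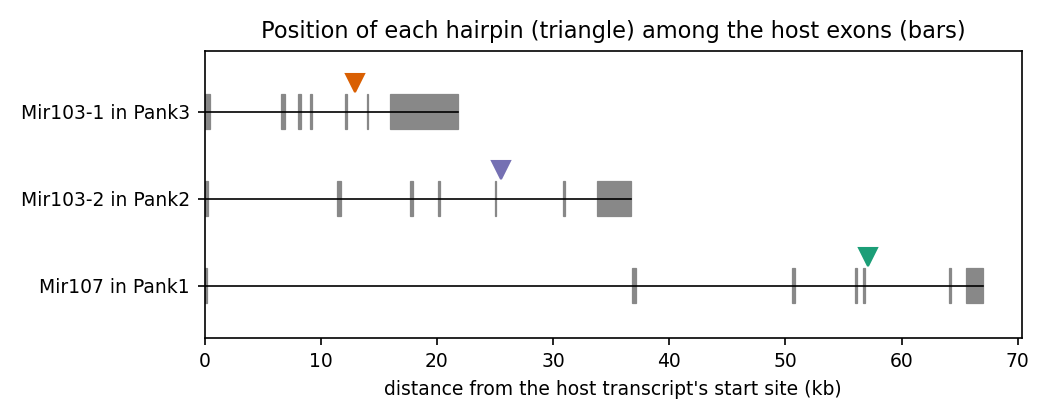
Exons (grey bars) of the principal transcript of Pank3, Pank2 and Pank1 against distance from the transcript's start site in kilobases, with a triangle at each miRNA hairpin. In every host the hairpin follows the fifth exon, and it lies 12912, 25552 and 57144 bases from the start site in Pank3, Pank2 and Pank1.

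Mir107 carried nearly all reads assigned to the family. It had 18563 reads in replicate 1 and 11792 in replicate 2, which is 2542 and 2973 CPM (reads scaled to the library's total of sense reads). Its exact Clopper-Pearson 95% intervals were 2506 to 2579 CPM in replicate 1 and 2919 to 3027 CPM in replicate 2, so the libraries differed by more than counting error. The mean was 2757 ± 305 CPM (SD, n = 2). The intervals allow for counting error alone, since PCR copies of 1 molecule are counted as separate reads.

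The loci of miR-103 stood far below it. Mir103-2, the copy in Pank2, had 584 and 260 reads in replicates 1 and 2, or 80.0 and 65.5 CPM, with a mean of 72.8 ± 10.2 CPM (SD, n = 2). Mir103-1, the copy in Pank3, had 82 and 35 reads, or 11.2 and 8.82 CPM, with a mean of 10.03 ± 1.70 CPM (SD, n = 2). All values of Mir103-1 lay below those of Mir103-2, and all of Mir103-2 below those of Mir107. No read was counted on the strand opposite to any of the 3 loci, where up to 3 reads, 0.411 CPM in replicate 1 and 0.756 CPM in replicate 2, could have gone unseen.

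**Figure D2:**
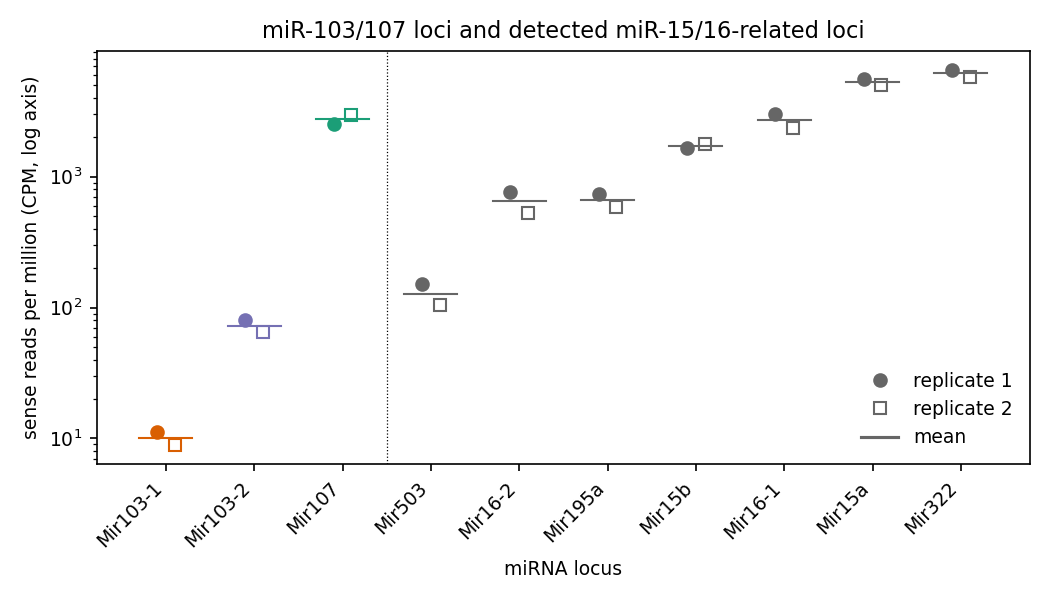
CPM on a log axis in replicate 1 (filled circles) and replicate 2 (open squares), with the mean as a line, for the 3 members (left of the dotted line) and the 7 detected loci of the miR-15/16-related list (right). Mir107 sits between 2542 and 2973 CPM, among the higher related loci, whereas Mir103-2 and Mir103-1 stay at or below 80.0 CPM.

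Within a library the ratio of 2 loci needs no scaling. Mir107 had 27.9 times the reads of Mir103-1 and Mir103-2 together in replicate 1 (exact binomial 95% interval 25.8 to 30.2) and 40.0 times in replicate 2 (35.6 to 45.02). The intervals do not overlap, so this ratio was not stable between the libraries beyond counting error. Mir103-2 had 7.12 times the reads of Mir103-1 in replicate 1 (5.64 to 9.09) and 7.43 times in replicate 2 (5.21 to 10.9). These intervals overlap and are wide, since Mir103-1 had 35 reads in replicate 2, and a shift as large as that of the first ratio would lie within them. Of the family's reads, Mir107 held 96.5% in replicate 1 and 97.6% in replicate 2, and the 3 loci together made up 0.263% and 0.305% of all sense reads.

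These ratios are of reads placed at a single locus, not of mature molecules. The authors' tables count reads that map to several places in a separate class, and this class held 36.2% of all reads in replicate 1 and 36.9% in replicate 2. How many of them came from the family is not recorded. A read that begins at the annotated 5′ end of the 3p arm is identical in all 3 hairpins up to 21 nt. From 22 nt it tells miR-107-3p from miR-103-3p, and only from 25 nt, beyond the 23 nt mature arm, does it tell Mir103-1 from Mir103-2. Without mismatches, a full-length miR-103-3p read therefore matches Mir103-1 and Mir103-2 equally. Among miRNA hairpins, a full-length miR-107-3p read then matches Mir107 alone. The latter read differs from miR-103-3p by 1 base, and whether the aligner allowed a mismatch was not given in the sources used here. No other gene of the GENCODE transcript set holds either 3p sequence.

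The 5p arms can be told apart. A 5p read of Mir103-2 or of Mir107 is distinct among miRNA hairpins from 16 nt, and one of Mir103-1 at every length from 15 nt, the shortest tested. The tables do not separate the arms of a hairpin, so whether the 666 and 295 reads of the miR-103 loci came from the 5p arm, from longer 3p reads or from elsewhere in the hairpin was not tested. Over all windows of 22 nt, 57 of 65 in Mir103-1, 55 of 65 in Mir103-2 and 61 of 66 in Mir107 occur in no other miRNA hairpin. Every shared window is shared within the family: Mir103-1 and Mir103-2 have 8 in common, Mir103-2 and Mir107 have 5, and Mir103-1 and Mir107 have 3. When a window was also counted as shared at 1 mismatch, the unique part was 45 of 65 windows in Mir103-1, 37 of 65 in Mir103-2 and 43 of 66 in Mir107.

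**Figure D3:**
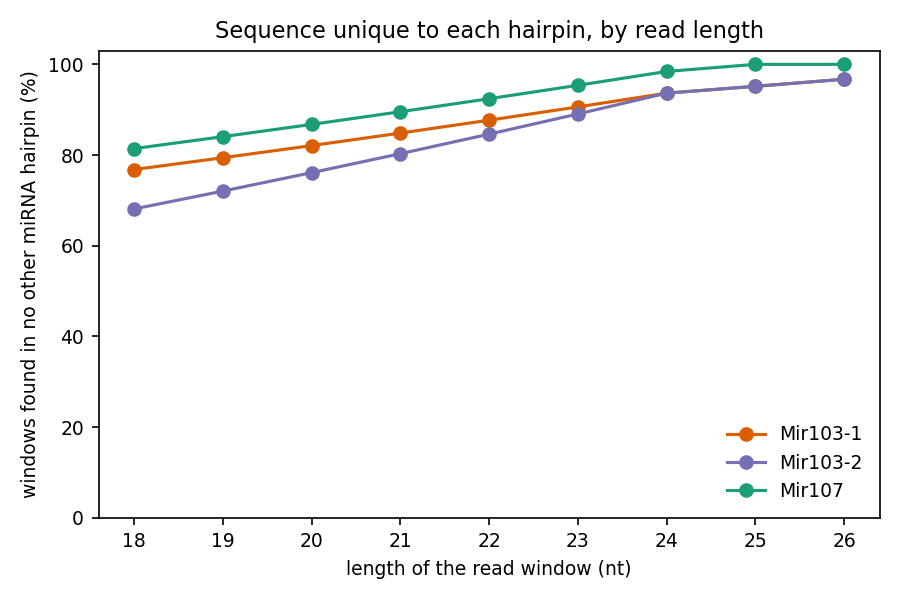
Percentage of read windows of a hairpin that match no other miRNA hairpin on either strand (0 mismatches), against window length from 18 to 26 nt, 1 line per member. Mir107 has the most unique windows at each length plotted, and all of its windows are unique at 26 nt, against 96.7% for Mir103-1 and Mir103-2.

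Other pairs of loci that share a mature arm give a scale for the Mir103-2 to Mir103-1 ratio. Among miRNA genes of RefSeq, 33 pairs of counted loci share an identical mature arm that no further locus has, and in 18 of them both loci were detected, with at least 10 sense reads in each library. The mean CPM of Mir103-2 was 7.26 times that of Mir103-1. This fold lay above that of 14 pairs and below that of 3, with a median of 2.76 over all 18 pairs. Mir16-1 and Mir16-2, which share miR-16-5p, differed 4.15-fold, and Mir181b-2 and Mir181b-1 formed the widest pair at 121-fold. Of 53 loci with 1 of their 2 annotated arms shared, 40 were detected, with a median of 216 CPM. Mir103-2 was number 24 and Mir103-1 number 33 of these 40.

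The contrast of Mir107 with the miR-103 loci can be set beside other miRNAs that differ by 1 base. The mean CPM of Mir107 was 33.3 times the sum of Mir103-1 and Mir103-2. Among 11 other pairs of detected loci or locus groups whose mature arms differ by 1 base, the median fold was 4.39, and 2 pairs exceeded 33.3, Mir17 over Mir106a at 52.1 and Mir204 over Mir211 at 38.9. Such folds mix the level of each miRNA with the part of its reads that could be placed.

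All 3 members were detected, against 20.1% of the 1973 loci. By mean CPM Mir107 ranked in place 64 of all loci, Mir103-2 in place 226 and Mir103-1 in place 311. The median of the 397 detected loci was 120 CPM, which Mir107 exceeded and the others did not reach. Of 654 loci in introns of protein-coding genes on the same strand 160 were detected, with a median of 67.8 CPM. Among these 160, Mir107 was number 24, Mir103-2 number 79 and Mir103-1 number 112.

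The nearest loci in rank were picked for a close mean CPM, so small differences from the members are built into the choice. Next above Mir107 were Mir181b-2 at 2849 ± 1285 CPM and Mir125b-2 at 2759 ± 210 CPM, and next below it Mir16-1 at 2692 ± 475 CPM and Mir434 at 2621 ± 345 CPM. Mir103-2 stood between Mir150 (76.4 CPM) and Mir6944 (75.4 CPM) above and Mir679 (71.6 CPM) and Mir216a (70.1 CPM) below. Mir103-1 stood between Mir486 (10.3 CPM) and Mir184 (10.3 CPM) above and Mir147 (9.89 CPM) and Mir1969 (9.69 CPM) below. Each of these 12 differences in mean CPM was smaller than the larger SD of its pair of loci (n = 2), so the places of the members are not resolved against these neighbours.

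**Figure D4:**
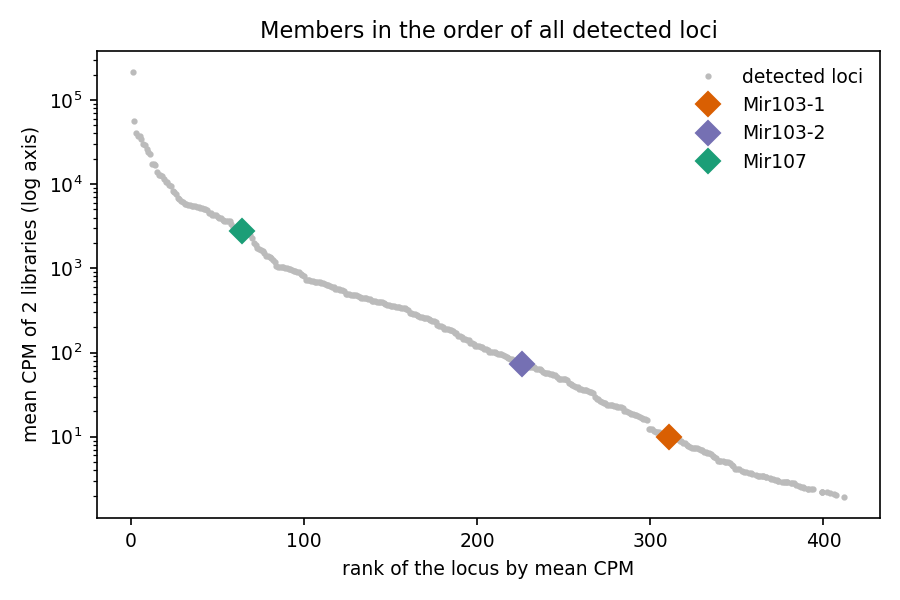
Mean CPM of the 2 libraries on a log axis against rank for the 397 detected loci (grey), with the members as diamonds. Mir107 at rank 64 lies on the upper part of the curve, and Mir103-2 at 226 and Mir103-1 at 311 on the lower part.

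The miR-15/16 group, regulators of the cell cycle, are the closest relatives by seed. The 5p arms of miR-15a, miR-16 and miR-322 hold the same run of bases moved by 1 position. That of miR-503 differs from this run at its last base. The sequences follow, again with bases 2 to 8 in capitals.
miR-15a-5p: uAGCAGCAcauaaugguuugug
miR-16-5p: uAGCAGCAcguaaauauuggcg
miR-322-5p: cAGCAGCAauucauguuuugga
miR-503-5p: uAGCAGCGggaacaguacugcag

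The seed of miR-15a, miR-16 and miR-322 is AGCAGCA, and that of miR-503 is AGCAGCG, against GCAGCAU in miR-103 and miR-107. Of 9 listed loci with counts, 7 were detected (20.1% over all loci). The list was set by name and not by seed. Mir6342, Mir6353 and Mir6419 also carry the seed AGCAGCA but are not on it, and each had a mean of 0 CPM. Mir322, from an X-linked cluster, had 6597 and 5834 CPM in replicates 1 and 2, and Mir15a, in the noncoding gene Dleu2, had 5597 and 5062 CPM. Both lay above Mir107 in each library. Mir15b, in an intron of Smc4, had 1647 and 1781 CPM and lay below Mir107 in each library. Mir16-1, at 3027 and 2356 CPM, stood above Mir107 in replicate 1 and below it in replicate 2. Mir195a, Mir16-2 and Mir503 had means of 664 ± 103.3, 648 ± 167 and 128 ± 32.7 CPM (SD, n = 2), all above both miR-103 loci. Mir195b and Mir497b had 1 sense read in replicate 1 and 0 in replicate 2, and the annotated mature arm of Mir497b carries another seed, ACCACAG. Summed, the 3 members had 2633 and 3047 CPM in replicates 1 and 2, against 18524 and 16258 CPM for the listed loci, which is 0.142 and 0.187 times as much. Mir16-1 and Mir16-2 share a mature arm too, so that sum is also of reads placed at a single locus. The sum of the listed loci leaves out Mir497, which was not analysed here, and the opposite-strand reads of Mir497b. Of miRNAs in introns of other genes of lipid and energy metabolism, listed as Mir33 and Mir378a, Mir33, within the sterol regulator gene Srebf2, had 115 and 165 CPM. It thus lay between Mir107 and Mir103-2, and Mir378a was not analysed here.

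The ratio of the libraries had opposite signs at Mir107 and at the miR-103 loci. After TMM scaling, log2(replicate 2/replicate 1) was 0.14 for Mir107, -0.38 for Mir103-2 and -0.44 for Mir103-1. An exact two-sided binomial test with Benjamini-Hochberg adjustment over the 397 detected loci placed Mir107 higher in replicate 2 (adjusted p = 4.72e-15) and Mir103-2 lower (adjusted p = 9.38e-04). Mir103-1 did not pass (adjusted p = 0.226). This test compares 2 libraries and allows for counting error alone. By it 53.9% of the detected loci differed, 24.4% higher and 29.5% lower in replicate 2, so a call is common at this depth. With edgeR's exactTest at the biological coefficient of variation estimated from these libraries, 0.219, the adjusted p was 1 for each member, and 1.26% of the detected loci differed. That coefficient comes from the spread between these same libraries, so this test could call few loci and does not show that the members were equal.

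All 3 ratios lay within 1.5-fold, as did those of 331 of 397 detected loci. With TMM 28.0% of the detected loci had a smaller absolute log2 ratio than Mir107, 70.8% a smaller one than Mir103-2 and 74.3% a smaller one than Mir103-1. With plain totals the log2 ratios were 0.23, -0.29 and -0.35 for Mir107, Mir103-2 and Mir103-1, and 43.3%, 55.7% and 63.2% of the detected loci had a smaller one, so the place of Mir107 depends on the scaling. The coefficient of variation between the libraries was 6.69% for Mir107, 18.3% for Mir103-2 and 21.3% for Mir103-1 with TMM, and 11.0%, 14.0% and 17.0% with plain totals. The detected loci with a log2 ratio nearest to that of Mir107 were Mir29a, Mir140, Mir217, Mir32 and Mir487b, all within 0.0074 of it. With 2 libraries, this likeness rests on a single ratio per locus.

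**Figure D5:**
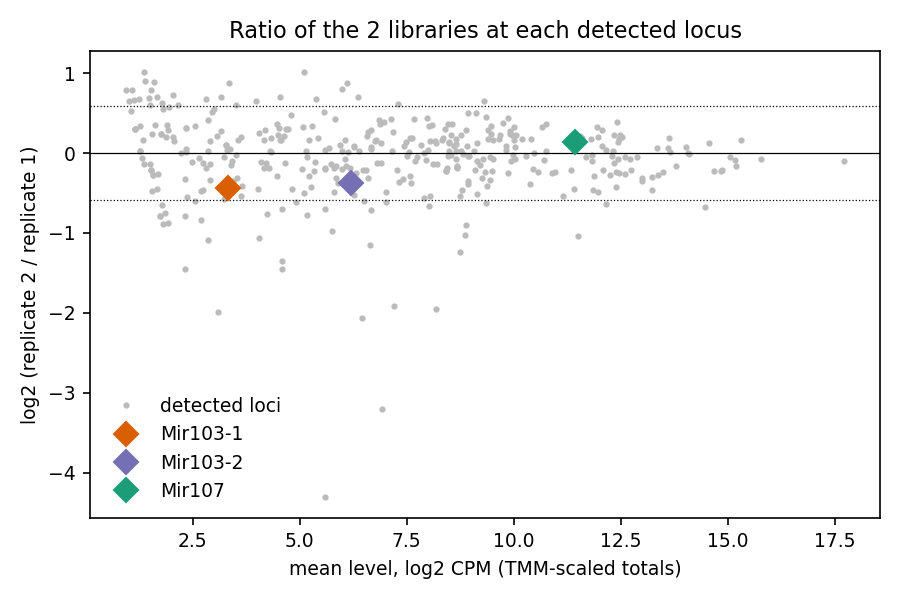
Log2 ratio of replicate 2 to replicate 1 (TMM-scaled) against mean level in log2 CPM for the 397 detected loci (grey) and the members (diamonds). The dotted lines mark 1.5-fold, and all 3 members lie between them, Mir107 above 0 and Mir103-2 and Mir103-1 below it.

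Marker miRNAs of the tissue and of other cells also differed between the libraries. Of 10 neural loci with counts 8 were detected (20.1% over all loci), and the 10 summed to 36068 CPM in replicate 1 and 41083 in replicate 2. Of the 10, 7 had a higher CPM in replicate 2, as Mir107 did, and Mir9-2, Mir124a-1 and Mir124a-3 a lower one. On this scale of plain totals the median log2 ratio over all detected loci was 0.09. A higher CPM in replicate 2 was therefore common and not particular to neural loci or Mir107. With TMM, 5 of the 8 detected neural loci had a positive log2 ratio, and the most abundant, Mir149, stood at -0.0071. The red cell loci, 2 of 2 detected, summed to 476 and 142 CPM. The endothelial Mir126a had 27037 and 18011 CPM and the myeloid Mir223 had 212 and 24.5 CPM. All of these were lower in replicate 2, as the values of Mir103-1 and Mir103-2 were. By the binomial test 90 of the 397 detected loci were lower in replicate 2 with plain totals, and 117 with TMM. A lower value was therefore not particular to these loci. The liver miRNA Mir122 had 14.1 and 10.3 CPM, and of 4 muscle loci 1 was detected, with sums of 23.0 and 30.0 CPM and 2 loci at 0 in each library. The part of these cells in the ratios of the members was not tested. In bulk tissue, fewer cells of a type and less RNA per cell cannot be told apart.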

How the data were processed

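Small RNA of 2 midbrain libraries was analysed from the counts the authors deposited, raw reads per miRNA gene for the annotated strand, the opposite strand and their sum. Assembly mm10 and annotation M4 were used, per the text files deposited beside the tables. The aligner and counter were not given in the sources used here. Classes of reads outside genes (unmapped, several places, no gene) were left out of CPM totals and tests, and multi-mapping reads were 36.2% and 36.9% of the libraries. Depth was 7302633 and 3966727 sense reads, so 1 read equals 0.137 and 0.252 CPM in replicates 1 and 2. A read of a mature miRNA spans the molecule, so CPM was not divided by length.

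Symbols and hosts came from GENCODE M21 (1894 of 1973 identifiers matched), sequences from the RefSeq table on GRCm38.p6, in which all 3 members were found. Windows were compared with miRNA hairpins and mature arms with GENCODE transcripts, not with the genome. Scaling used TMM in edgeR 4.0.16, size factors came from DESeq2 1.42.0, and folding used RNAfold 2.7.2. The binomial test was tested on simulated data with Poisson counts, which hold counting error alone, as the test assumes. There it recovered 84% of 200 loci changed 2-fold, with 382 loci tested, and called 5 of 196 unchanged loci. The few false calls follow from that setting and are not the rate of false calls between the real libraries. As 1 group allows no contrast, no glmQLFTest was run.

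The named loci were the 3 members, the miR-15/16-related and metabolic host lists, the 2 loci on each side of a member in rank, the 5 loci nearest to Mir107 in ratio, and the pairs that differ by 1 base. Shared-arm pairs were added later. Members and lists were chosen with earlier results of these data known.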

Additional observations from a re-analysis of the deposited data

Results flagged for a closer look

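Mir497b, a listed relative with 1 sense read in replicate 1 and 0 in replicate 2, had 3605 and 2303 reads on the opposite strand in replicates 1 and 2, which is 494 and 581 CPM on the scale of sense reads. Those reads lie on the strand that the main values leave out and enter only the unstranded alternative, and Mir497 itself was not analysed here. The neural marker Mir124a-3 likewise had 13 and 12 opposite-strand reads, above the limit of 3 that a count of 0 allows.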

How the results depend on the processing

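Under the 70 alternatives to 15 results 56 values kept their call, or stayed within the replicate SD, their interval or, for counts, 1.5-fold. Of these, 17 could not have come out otherwise and say nothing about stability: 14 leave out 1 of 2 libraries, which always moves a mean by less than the SD, and 3 are unstranded ratios of loci with no opposite-strand read. No ratio changed its direction, and the other results have none to reverse. With no filter or a minimum of 100 reads a log2 ratio between the libraries is unchanged by construction, so only its adjusted p could differ. Windows of 1 hairpin overlap, so the interval of their share is a yardstick and not a measure of error. With all reads of a library as the total, levels were 4.13 CPM for Mir103-1, 29.9 for Mir103-2 and 1136 for Mir107, and the family share was 0.117%; without the most abundant locus in the total the share was 0.361%. Under edgeR's exactTest the log2 ratios of Mir103-2 (-0.38) and Mir107 (0.14) no longer passed, and 5 loci differed in place of 214; its dispersion came from the spread it tested, so this loss of calls is built in. With Mir103-1 and Mir103-2 summed the log2 ratio was -0.38 (exact binomial, adjusted p = 3.22e-04). Mir103-2 held 87.7% and 88.1% of the summed reads in replicates 1 and 2, so this says nothing of Mir103-1, which did not pass alone. With plain totals the median log2 ratio over detected loci was 0.09 and the split of differing loci 127 higher and 90 lower, against 97 higher and 117 lower with TMM. The unique share of windows was 93.7% for Mir103-2 and 98.4% for Mir107 at 24 nt, and at 1 mismatch 69.2% for Mir103-1, 56.9% for Mir103-2 and 65.2% for Mir107. Without 1 replicate, means lay between 8.82 and 11.2 CPM for Mir103-1, 65.5 and 80.0 for Mir103-2, and 2542 and 2973 for Mir107. The family share then lay between 0.263% and 0.305%. The log2 ratio of Mir103-2 to Mir103-1 lay between 2.83 and 2.89, that of Mir107 to Mir103-1 between 7.82 and 8.40, and that of Mir107 to Mir103-2 between 4.99 and 5.50. The number of detected related loci was 7 without either replicate. Ratios between the libraries cannot be had from 1 library, and Mir103-1 has no value at a minimum of 100 reads. No paired analysis was possible because the series holds 1 group.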
